A study of Homo sapiens with 4 samples.

Results

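The genes described here are 10 genes of the pre-B cell receptor and of V(D)J recombination, chosen by name: the surrogate light chain genes VPREB1 and IGLL1 and the related VPREB3, the signalling chain genes CD79A and CD79B, the kinase and adaptor genes SYK and BLNK, and DNTT, RAG1 and RAG2, which act on the antigen receptor genes themselves. All 10 were found by Ensembl ID among the 43450 rows of the expression table. They were read in BLaER1, a human B cell leukaemia line with an inducible C/EBPα transgene, in 2 control libraries and in 2 libraries from cells given 3 LNA GapmeRs against the long non-coding RNA HAL7 in the medium. GapmeRs are antisense oligonucleotides that direct RNase H to the RNA they bind. All libraries come from 1 line and were made from polyadenylated RNA. Neither the treatment of the control cells nor its duration is given in the sources used here. The labels number the replicates 0 and 1 in each group without saying that they were separate cultures, so the spread behind each p-value is that of these libraries alone and may be technical.

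A developing B cell assembles its immunoglobulin heavy chain gene first. RAG1 and RAG2 together cut the DNA beside the gene segments, terminal transferase, the product of DNTT, adds bases at the cut ends without a template, and the end joining proteins seal the joint. The heavy chain is then tested on the cell surface with a surrogate light chain made of the VPREB1 and IGLL1 proteins, coupled to CD79A and CD79B, whose tails are phosphorylated and bind the kinase SYK, which in turn phosphorylates the adaptor BLNK. Light chain genes are rearranged only after this step, and in normal development the surrogate light chain, DNTT and RAG genes are off in mature B cells.

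Because surrogate light chain, terminal transferase and CD79A genes are textbook targets of the early B lineage factors E2A (TCF3) and EBF1, the stretch before the start of these genes is shown for 2 short motifs. The windows are the 250 bases before each RefSeq start on GRCh38.p14, read 5′ to 3′ on the gene's strand, and capitals mark the E-box CAGGTG on either strand, which E2A can bind, and CCCNNGGG, the core of the EBF1 motif. The window of VPREB1 is chr22:22244536-22244785 on the plus strand. Those of IGLL1 and VPREB3 are chr22:23580291-23580540 and chr22:23754426-23754675, both on the minus strand. The DNTT window is chr10:96304184-96304433 and that of CD79A chr19:41877029-41877278, both on the plus strand. That of RAG2 is chr11:36598237-36598486 on the minus strand. RAG2 is included because its level and that of RAG1 differed most between the groups.
VPREB1: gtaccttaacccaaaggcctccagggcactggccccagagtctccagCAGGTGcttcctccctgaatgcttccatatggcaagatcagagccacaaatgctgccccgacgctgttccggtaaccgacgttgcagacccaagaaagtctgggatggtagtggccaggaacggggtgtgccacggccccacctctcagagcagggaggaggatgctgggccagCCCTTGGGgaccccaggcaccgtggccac
IGLL1: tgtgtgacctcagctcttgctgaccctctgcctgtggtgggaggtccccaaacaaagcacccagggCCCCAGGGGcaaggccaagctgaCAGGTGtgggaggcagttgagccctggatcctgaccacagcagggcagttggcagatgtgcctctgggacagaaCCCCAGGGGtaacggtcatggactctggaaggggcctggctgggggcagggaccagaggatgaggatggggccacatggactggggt
VPREB3: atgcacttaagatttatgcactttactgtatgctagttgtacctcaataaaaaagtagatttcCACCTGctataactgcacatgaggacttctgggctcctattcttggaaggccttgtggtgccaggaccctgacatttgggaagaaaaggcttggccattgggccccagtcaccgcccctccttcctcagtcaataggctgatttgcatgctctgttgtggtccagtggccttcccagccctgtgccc
DNTT: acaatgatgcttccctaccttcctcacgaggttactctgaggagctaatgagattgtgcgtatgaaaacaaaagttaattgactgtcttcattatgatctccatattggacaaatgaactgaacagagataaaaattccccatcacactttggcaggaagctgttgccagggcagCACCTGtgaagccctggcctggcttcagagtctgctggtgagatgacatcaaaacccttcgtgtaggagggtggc
CD79A: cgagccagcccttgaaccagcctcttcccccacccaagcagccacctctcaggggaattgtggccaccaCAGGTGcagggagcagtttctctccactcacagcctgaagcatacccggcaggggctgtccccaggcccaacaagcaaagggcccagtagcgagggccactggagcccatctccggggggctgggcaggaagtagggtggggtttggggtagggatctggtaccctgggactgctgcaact
RAG2: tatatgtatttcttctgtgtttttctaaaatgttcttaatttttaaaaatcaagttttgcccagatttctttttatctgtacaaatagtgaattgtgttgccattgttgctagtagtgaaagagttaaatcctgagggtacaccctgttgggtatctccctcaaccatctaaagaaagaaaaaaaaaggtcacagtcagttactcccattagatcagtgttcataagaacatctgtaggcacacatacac
CAGGTG on either strand was present in at least 1 window of 7 of the 9 genes that the RefSeq table holds, namely VPREB1, VPREB3, IGLL1, DNTT, CD79A, BLNK and SYK. Over all 27305 genes of that table, 20.6% have such a window. By window, the match was in 7 of 11 (SYK has 3 starts) and in 17.5% of all 35116 windows. CCCNNGGG, which reads the same on both strands, was in the windows of VPREB1 and IGLL1 and of 19.8% of all genes. In IGLL1 it matched at 4 overlapping positions in 2 stretches, and in no window did it overlap CAGGTG. The letters TGGGAA, a motif of IKAROS, were in windows of 2 of the 9 genes, VPREB3 and SYK, against 24.6% of all genes, and TGTTTAC, a motif of FOXO factors, in 0 against 3.66%. These are matches of letters, and binding was not measured. CD79B was not looked up, having no entry in the table. The RAG1 window belongs to a start upstream of every RAG1 start in GENCODE 29 and is not printed. Each printed window reaches past the most upstream GENCODE 29 start of its gene, so its last part lies within the gene as annotated there. The CCCNNGGG match of VPREB1 is in that part.

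Where a group has 2 values, that of replicate 0 comes first. HAL7 itself was listed at 0.726 and 0.613 FPKM in the controls and at 0.475 and 0.347 FPKM after knockdown, a ratio of means of 0.614 that did not pass (limma adjusted p = 0.32). FPKM is scaled to transcript length and library size, so levels can be set beside each other between genes. Depth is not stated; steps in the low values correspond to 60.3 to 128 M fragments, lowest in control replicate 0. At that depth the fewest estimated fragments of the 10 genes were those of BLNK in control replicate 0, about 7488 over a median-length transcript, a counting error of 1.16%. Zeros may be failed estimates, since even EEF1A1, a translation factor gene of every cell, has 0 throughout, and are given only as listed at 0.

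Apart from SYK, the 10 genes were among the more abundant transcripts of the line, and the order of the 10 was nearly the same in all 4 libraries. DNTT stood highest, between the 102nd and the 110th place of the 43450 rows, and 9 of the 10 ranked within the top 1.88% in every library. The exception was SYK, at 5.74% in its lowest library. These shares are of all rows, those listed at 0 included. In their lowest libraries BLNK was in place 817 and SYK in place 2494. Of the 12935 tested genes, 2468 had a mean at or above that of SYK. From the highest mean to the lowest the order was DNTT, IGLL1, VPREB3, VPREB1, RAG2, CD79B, CD79A, RAG1, BLNK and SYK. The ranges over the 4 libraries overlapped for 3 neighbouring pairs, VPREB1 with RAG2, CD79B with CD79A and CD79A with RAG1. CD79B was nevertheless above CD79A, and CD79A above RAG1, in each of the 4 libraries, and VPREB1 was above RAG2 in 3 of 4.

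**Figure D1:**
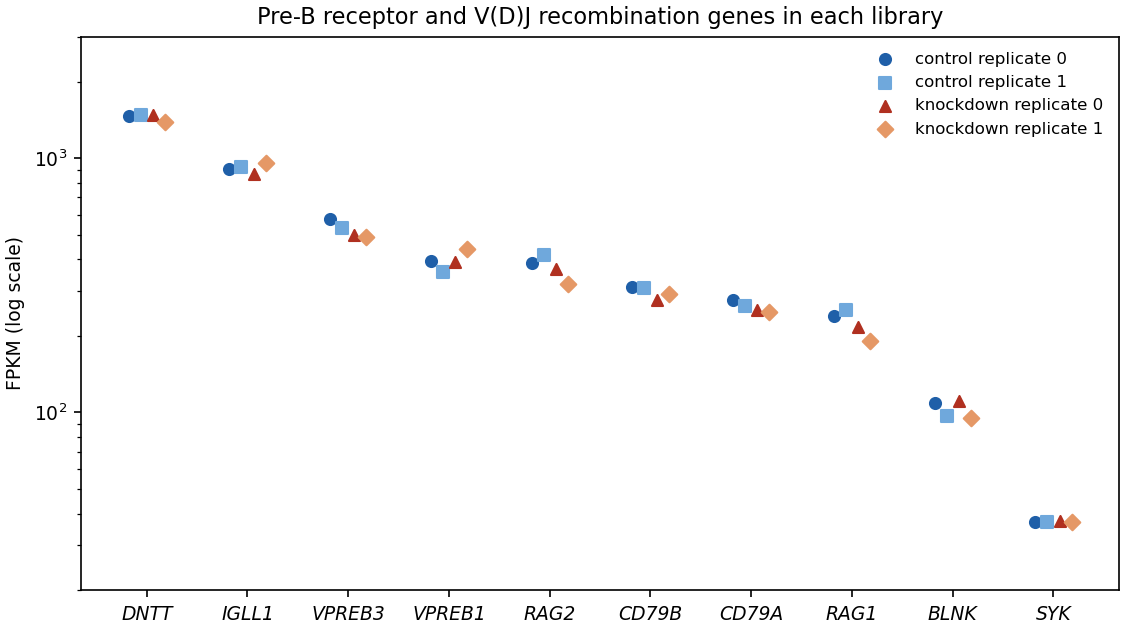
FPKM (log scale) of the 10 genes in each of the 4 libraries, ordered by mean level; circles and squares are control replicates 0 and 1, triangles and diamonds knockdown replicates 0 and 1. DNTT lies between 1392 and 1478 FPKM and SYK between 37.0 and 37.5 FPKM; for RAG1 and RAG2 both knockdown points lie below both control points.

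In the comparison of knockdown with control, 0 of the 10 genes passed a limma adjusted p of 0.05, where 4 of all 12935 tested genes (0.0309%) did. At an unadjusted p under 0.05 in limma, 3 of the 10 genes stood lower (RAG1, RAG2 and VPREB3) and 0 stood higher, beside 9.35% lower and 7.25% higher of all tested genes and 16.6% in either direction. Both knockdown libraries lay below both controls for 5 of the 10 genes, against 27.7% of all tested genes, and above both for 1, against 22.5%; in either direction the groups did not overlap for 6 of the 10, against 50.3%. Which of the 10 genes met the unadjusted threshold depended on the setting. With quantile normalization RAG2 left the set (limma unadjusted p = 0.058) and CD79B entered it as a gene that stood lower. Without a filter on low values RAG2 also left it (limma unadjusted p = 0.066). RAG1 and VPREB3 stayed in it in these settings. The set also changed when the trend with GC content was removed, as given below. The median log2 change was -0.07 over the 10 genes and -0.01 over all tested genes. All log2 changes are on log2(FPKM + 1), knockdown minus control. On that scale the control libraries did not group together over the tested genes. Control replicate 1 correlated with the knockdown libraries at a Pearson r of 0.994 and 0.993, but with control replicate 0 at 0.9895. Control replicate 0 correlated with the knockdown libraries at 0.988 and 0.985, and these with each other at 0.995. The cause was not tested.

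RAG1 and RAG2, the subunits of the recombinase, had the largest differences of the 10 genes, and neither passed. RAG1 had 239.7 and 252 FPKM in the controls and 216 and 191 FPKM after knockdown. The knockdown libraries were the lower ones, replicate 1 the lowest, and the groups did not overlap. The mean of 203 ± 17.6 FPKM after knockdown was 0.827 times the control mean of 246 ± 8.65 FPKM (SD, n = 2 each). On the log2 scale the change was -0.27 ± 0.07 (SE), with a 95% interval of -0.45 to -0.10 (limma adjusted p = 0.20). RAG2 had 386 and 415 FPKM in the controls and 365 and 319 FPKM after knockdown, with the same order of the 4 libraries as RAG1. Its mean of 342 ± 32.8 FPKM was 0.855 times that of the controls, 400.4 ± 21.0 FPKM, a log2 change of -0.23 ± 0.08 (SE) with a 95% interval of -0.42 to -0.04 (limma adjusted p = 0.25). Without knockdown replicate 1 the log2 change of RAG2 was -0.13 (limma adjusted p = 0.41, in a range of 0.13 to 0.72 as each library was left out). That of RAG1 ran from -0.36 to -0.19 as each library was left out.

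The level of RAG1 relative to RAG2 within a library hardly moved. The ratio of RAG1 to RAG2 was 0.622 and 0.607 in the controls and 0.591 and 0.598 after knockdown, a narrow range beside the 1.32-fold spread of RAG1 and the 1.30-fold spread of RAG2 over the libraries. RAG1 (ENSG00000166349.5) is protein-coding and spans 36510709 to 36593156 on the plus strand of chromosome 11 on GRCh38, and RAG2 (ENSG00000175097.3) spans 36575574 to 36598279 on its minus strand. In GENCODE 29 their exons share 588 nt on opposite strands, 7.52% of the exonic length of RAG1 and 16.8% of that of RAG2. Strand-specific counting is not stated, so reads in that stretch cannot be told apart. RAG2 also shares 321 nt with C11orf74, which was listed at 10.6 to 10.8 FPKM.

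DNTT, whose enzyme diversifies the junctions that RAG1 and RAG2 open, was the most abundant of the 10 genes. The controls held 1463 and 1478 FPKM of it and the knockdown libraries 1476 and 1392 FPKM. Only knockdown replicate 1 stood below the other libraries, and the groups overlapped. Its means were 1470.5 ± 11.3 FPKM in the controls and 1434 ± 59.5 FPKM after knockdown, a log2 change of -0.04 ± 0.06 (SE) with a 95% interval of -0.18 to 0.11 (limma adjusted p = 0.80). RAG1 stood at 0.164 and 0.170 times the level of DNTT in the controls and at 0.146 and 0.137 times in the knockdown libraries. DNTT (ENSG00000107447.4) spans 96304396 to 96338564 on the plus strand of chromosome 10.

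The surrogate light chain genes VPREB1 and IGLL1 were among the 4 with the highest means of the 10 genes, and neither passed. VPREB1, which encodes the variable-like part of that chain, had 394 and 356 FPKM in the controls and 392 and 437 FPKM after knockdown. Knockdown replicate 1 was the highest and control replicate 1 the lowest, and the groups overlapped. The log2 change was 0.14 ± 0.08 (SE), with a 95% interval of -0.04 to 0.33 (limma adjusted p = 0.40). It was 0.07 without control replicate 1 and without knockdown replicate 1, and 0.22 without either of the other libraries. IGLL1, which encodes the constant-like part, had 904 and 925 FPKM in the controls and 866 and 955 FPKM in the knockdown libraries, which held both its lowest and its highest value. Its log2 change was -0.01 ± 0.07 (SE), with a 95% interval of -0.17 to 0.15 (limma adjusted p = 0.97). VPREB1 stood at 0.436 and 0.384 times the level of IGLL1 in the controls and at 0.452 and 0.458 times in the knockdown libraries.

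VPREB3, which encodes a related protein retained in the endoplasmic reticulum, had 574 and 533 FPKM in the controls and 501 and 487 FPKM after knockdown. The knockdown libraries were the lower ones and the groups did not overlap. The mean of 494 ± 9.35 FPKM after knockdown was 0.893 times the control mean of 553 ± 28.7 FPKM, a log2 change of -0.16 ± 0.06 (SE) with a 95% interval of -0.31 to -0.02 (limma adjusted p = 0.26). VPREB1, IGLL1 and VPREB3 all lie on chromosome 22, at 22244675 to 22245515 on the plus strand, 23573125 to 23580308 on the minus strand and 23752743 to 23754468 on the minus strand. IGLL1 resembles the immunoglobulin lambda constant genes and IGLL5, and reads from similar stretches may be split between them. IGLL5 was listed at 131 and 109.95 FPKM in the controls and 123 and 175 FPKM in the knockdown libraries, IGLC1 at 37.3 to 54.8 FPKM and IGLC2 at 39.9 to 46.2 FPKM, all 3 looked up after the values of IGLL1 had been seen. The levels of IGLL1 are uncertain to that extent.

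The signalling chains of the receptor differed little between the groups. CD79A had 278 and 263 FPKM in the controls and 252 and 249 FPKM after knockdown, without overlap. Its log2 change was -0.11 ± 0.05 (SE), with a 95% interval of -0.24 to 0.02 (limma adjusted p = 0.36). CD79B had 310.0 and 309 FPKM in the controls and 276 and 293 FPKM in the knockdown libraries, again without overlap. Its log2 change was -0.12 ± 0.05 (SE), with a 95% interval of -0.25 to 0.01 (limma adjusted p = 0.33). The chains form a heterodimer, and CD79A stood at 0.849 to 0.913 times the level of CD79B over the 4 libraries. CD79A spans 41877120 to 41881372 on the plus strand of chromosome 19 and CD79B 63928740 to 63932354 on the minus strand of chromosome 17, where a read-through gene annotated in GENCODE 29 shares 288 nt of its exons on the same strand.

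SYK and BLNK, which carry the signal inwards, had the lowest levels and the smallest differences beside IGLL1. SYK had 37.0 FPKM in both controls and 37.5 and 37.0 FPKM after knockdown, a highest-to-lowest ratio of 1.01. Its log2 change was 0.01 ± 0.05 (SE), with a 95% interval of -0.11 to 0.13 (limma adjusted p = 0.93). Both knockdown values of SYK were above both controls, and replicate 1 lay closer to the controls than to the other knockdown library. BLNK had 109 and 97.0 FPKM in the controls and 111 and 94.95 FPKM in the knockdown libraries, so that the replicates numbered 0 were high and those numbered 1 low in both groups. Its log2 change was -0.00 ± 0.09 (SE), with a 95% interval of -0.22 to 0.21 (limma adjusted p = 0.99). SYK spans 90801787 to 90898549 on the plus strand of chromosome 9, and BLNK 96191702 to 96271587 on the minus strand of chromosome 10, where its exons share 355 nt with ZNF518A on the opposite strand, listed at 4.10 to 4.95 FPKM.

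**Figure D2:**
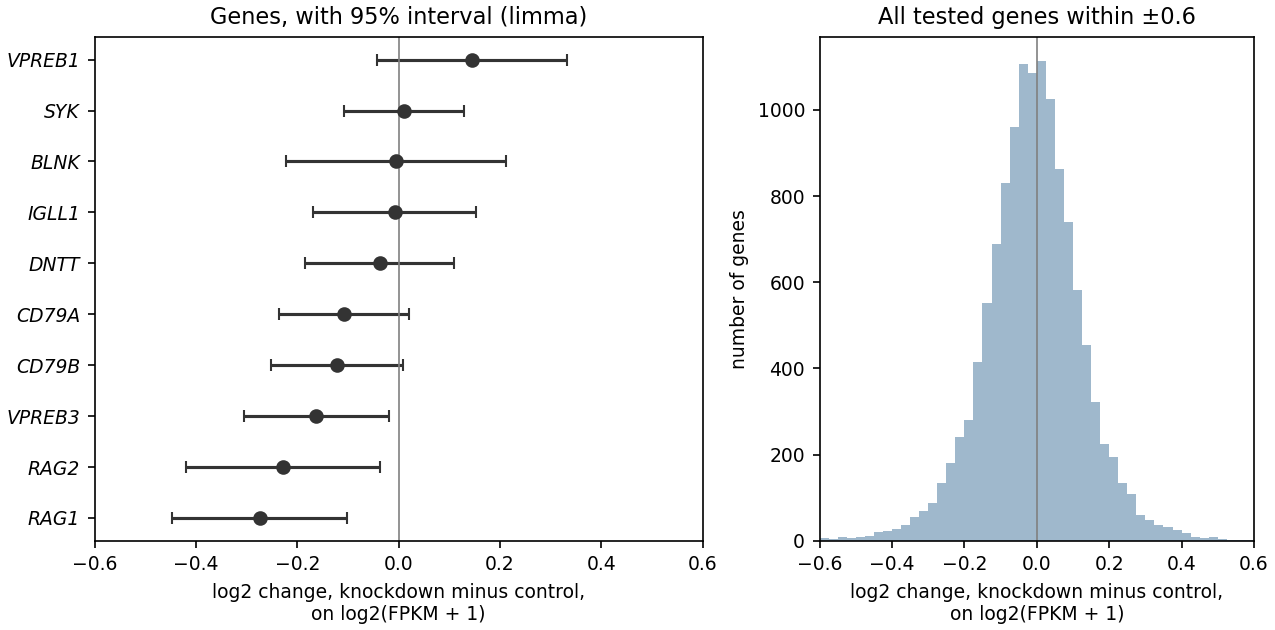
Left, log2 change (knockdown minus control, on log2(FPKM + 1)) of the 10 genes with the 95% interval from limma; right, number of tested genes by log2 change, for those within 0.6 of 0. RAG1 at -0.27 and RAG2 at -0.23 are the lowest of the 10 and VPREB1 at 0.14 the highest, and intervals of 7 of the 10 genes include 0.

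Log2 changes were lower for genes of higher transcript GC content over the whole table, with a Spearman rho of -0.43 across 12499 genes, given as a description since genes are not independent. RAG1 and RAG2, at 43.8% and 46.9% GC, are on the low side of the tested genes, while CD79A, CD79B, VPREB1 and IGLL1 are at 60.7%, 60.2%, 59.1% and 63.0%. With the GC trend removed, the log2 changes of CD79A and CD79B were -0.04 and -0.06, that of IGLL1 was 0.08 and that of VPREB1 was 0.20. Those of RAG1 and RAG2 were -0.30 and -0.24. That of VPREB3, at 57.6% GC, shrank from -0.16 to -0.11. The set of genes that met the unadjusted limma threshold also changed. RAG1 and RAG2 stayed in it, VPREB3 left it, and VPREB1 entered it as a gene that stood higher.

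Genes around the receptor and the recombinase were counted in 2 lists, and in both 0 genes passed the limma test over all genes. Of 29 genes of pre-B receptor signalling, 27 were tested, and 3 had an unadjusted limma p under 0.05, all lower. That is 11.1%, beside 9.35% lower and 16.6% in either direction of all genes. Of these 27, 18 had negative and 9 positive log2 changes, with a median of -0.08. Over all 12935 tested genes 6877 were negative and 6058 positive. The smallest p belonged to PAG1, a membrane adaptor that recruits the inhibitory kinase CSK to Src-family kinases. The controls had 35.2 and 36.5 FPKM and the knockdown libraries 28.6 and 20.9 FPKM, a log2 change of -0.53 ± 0.13 (SE; limma adjusted p = 0.20). VAV1, a guanine nucleotide exchange factor, and PIK3CD, a catalytic subunit of phosphoinositide 3-kinase, stood at ratios of 0.909 and 0.897. PTPN6, the phosphatase SHP-1 and among the most abundant of the list, had 123 and 116 FPKM in the controls and 126 and 149 FPKM after knockdown (limma adjusted p = 0.31).

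The Src-family kinase gene BLK, at 226 to 245 FPKM, and BTK, the kinase that BLNK brings to phospholipase C gamma, at 139 to 164 FPKM, were the most abundant genes of the signalling list. ZAP70, the relative of SYK best known from T cells and named here after its values were seen, had 96.0 and 98.9 FPKM in the controls and 92.3 and 88.5 FPKM in the knockdown libraries, above SYK in every library. The 2 genes of the list below the filter, also named after their values were seen, were the adaptor gene DAPP1, at 0.327 to 0.356 FPKM, and PTPRC, the phosphatase CD45, at 0.0745 and 0.0501 FPKM in the controls and listed at 0.0158 and 0 FPKM in the knockdown libraries.

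All 18 genes of end joining and cleavage were tested, and 3 of them (16.7%) had an unadjusted limma p under 0.05, all higher. Of all genes 7.25% stood higher at that threshold, and 16.6% met it in either direction. Log2 changes were positive in 13 and negative in 5, with a median of 0.05, beside 6058 positive and 6877 negative over all tested genes. LIG4, the ligase that seals the joints, had 15.2 and 13.9 FPKM in the controls and 17.97 and 16.98 FPKM after knockdown, a log2 change of 0.25 ± 0.07 (SE; limma adjusted p = 0.20). HMGB2, a DNA-bending cofactor of the recombinase, had 369 and 362 FPKM in the controls and 411 and 409 FPKM after knockdown (limma adjusted p = 0.22). HMGB1, its relative, was the most abundant of the list at 541 to 578 FPKM and stood at a ratio of 0.995. NBN, of the break-sensing MRE11 complex, and XRCC5 and XRCC6, the Ku subunits that hold broken ends, stood at ratios of 1.11, 1.08 and 1.04.

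**Figure D3:**
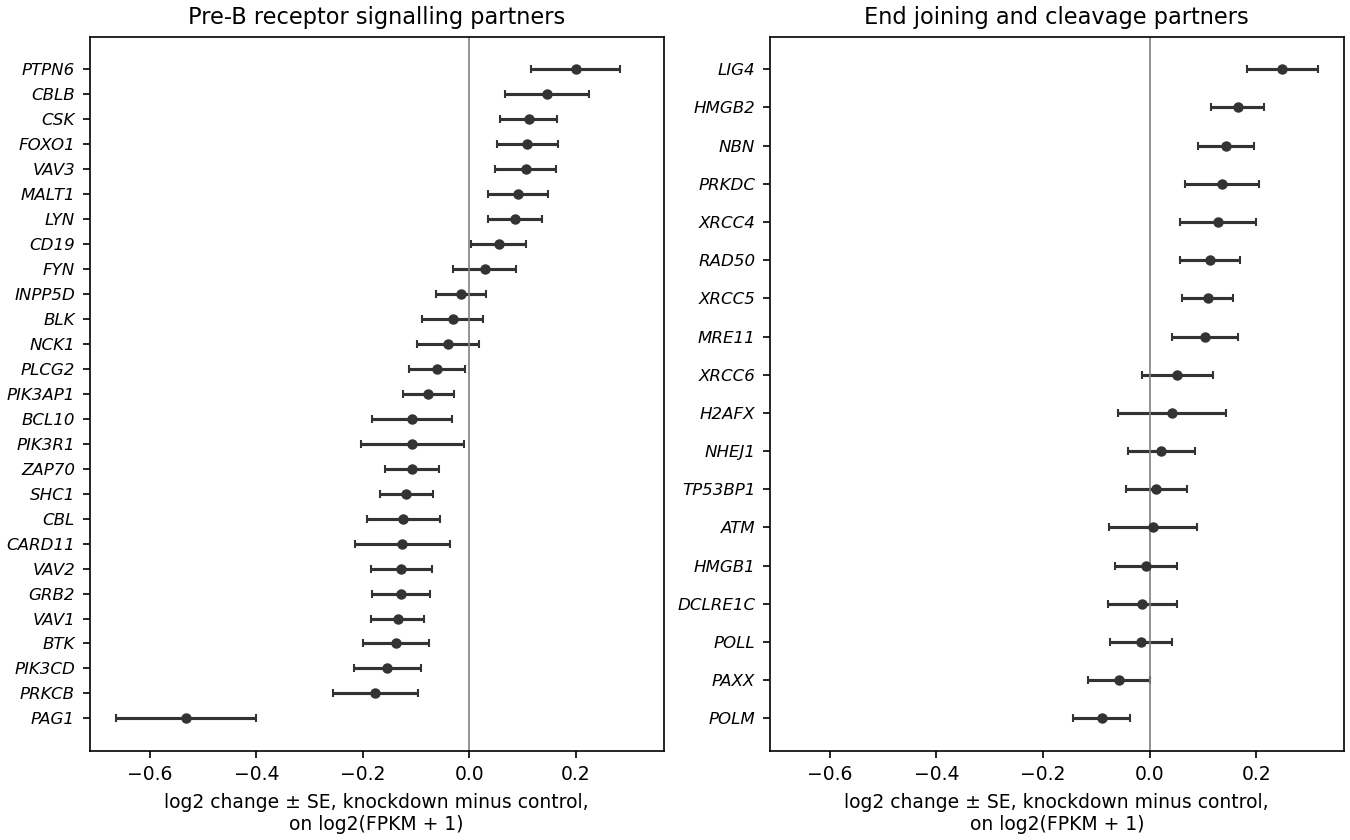
Log2 change ± SE (knockdown minus control, on log2(FPKM + 1)) of the 27 tested signalling genes on the left and the 18 end joining and cleavage genes on the right, ordered by value. PAG1 at -0.53 lies apart at the lower end of the signalling genes, and LIG4 at 0.25 is the highest of the others.

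Levels of genes that mark steps of B cell development were set beside the 10 genes. IGHM, the constant part of the heavy chain that pairs with the surrogate light chain, had 1744 and 1569 FPKM in the controls and 1595 and 1798 FPKM after knockdown, above all 10 genes in each library. IGKC, the kappa light chain constant gene, had only 6.44 to 10.7 FPKM, which is 0.00358 to 0.00681 times the level of IGHM. IGLL1 stood at 0.518 to 0.590 times IGHM. Of pro-B genes, IL7R, the interleukin 7 receptor chain, LEF1 and CD9 were at 542 to 601, 442 to 502 and 418 to 453 FPKM. CD34, the progenitor antigen, was at 0.326 to 0.354 FPKM and MME, the CD10 antigen common on precursor B cells, at 1.63 to 2.72 FPKM. CD99 was listed at 0 in all 4 libraries. Of pre-B genes, IRF8 was the lowest after MME, at 8.05 to 8.54 FPKM. CD24, SPIB and TRAC were not analysed here, having no matching ID.

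Of mature B cell genes, CD72, CD22 and IGHD, the delta constant gene, were at 113 to 121, 107 to 113 and 38.8 to 52.3 FPKM. MS4A1, the CD20 antigen, was at 6.10 to 6.58 FPKM, and CR2 and FCRL1 were lowest, at most 0.0153 and 0.107 FPKM. Plasma cell genes were divided: MZB1, XBP1 and IRF4 were at 283 to 299, 233 to 258 and 43.2 to 55.6 FPKM, while PRDM1, the factor that drives plasma cell fate, and TNFRSF17 were at most 0.150 and 0.388 FPKM. The line thus showed high levels of the heavy chain, surrogate light chain, DNTT and RAG genes together. Levels of kappa light chain, CD20, CD34 and CD10 were low, but those of the mature B cell genes CD72, CD22 and IGHD were not. Listed values of light chain constant genes were not limited to kappa. The lambda constant genes IGLC1 and IGLC2 stood at 37.3 to 54.8 and 39.9 to 46.2 FPKM, and IGLC3 at 6.16 to 7.82 FPKM. Reads of IGLL1, IGLL5 and these genes may be split between them, so these values may not be those of lambda light chain transcripts. That was not tested.

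Markers of other lineages were mostly near 0. Of 11 matched T cell markers 2 reached a mean of 1 FPKM, LCK and CD247, at 14.3 to 16.4 and 7.52 to 12.2 FPKM. CD7 was next at 0.627 to 1.17 FPKM, while CD3D, CD3G and CD2 were listed at 0 in all 4 libraries. The summed level of the 11 markers was 29.1 and 29.5 FPKM in the controls and 26.5 and 24.2 FPKM in the knockdown libraries. This sum was lower in the knockdown libraries like RAG1 and RAG2, and its part in those differences was not tested. Of 12 myeloid markers 2 reached 1 FPKM, CSF1R at 33.8 to 38.0 FPKM and CD68 at 1.99 to 3.21 FPKM, and ELANE, S100A8 and S100A9 were listed at 0. The myeloid sum was 39.5 to 40.3 FPKM in the controls and 37.3 to 40.8 FPKM in the knockdown libraries.

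**Figure D4:**
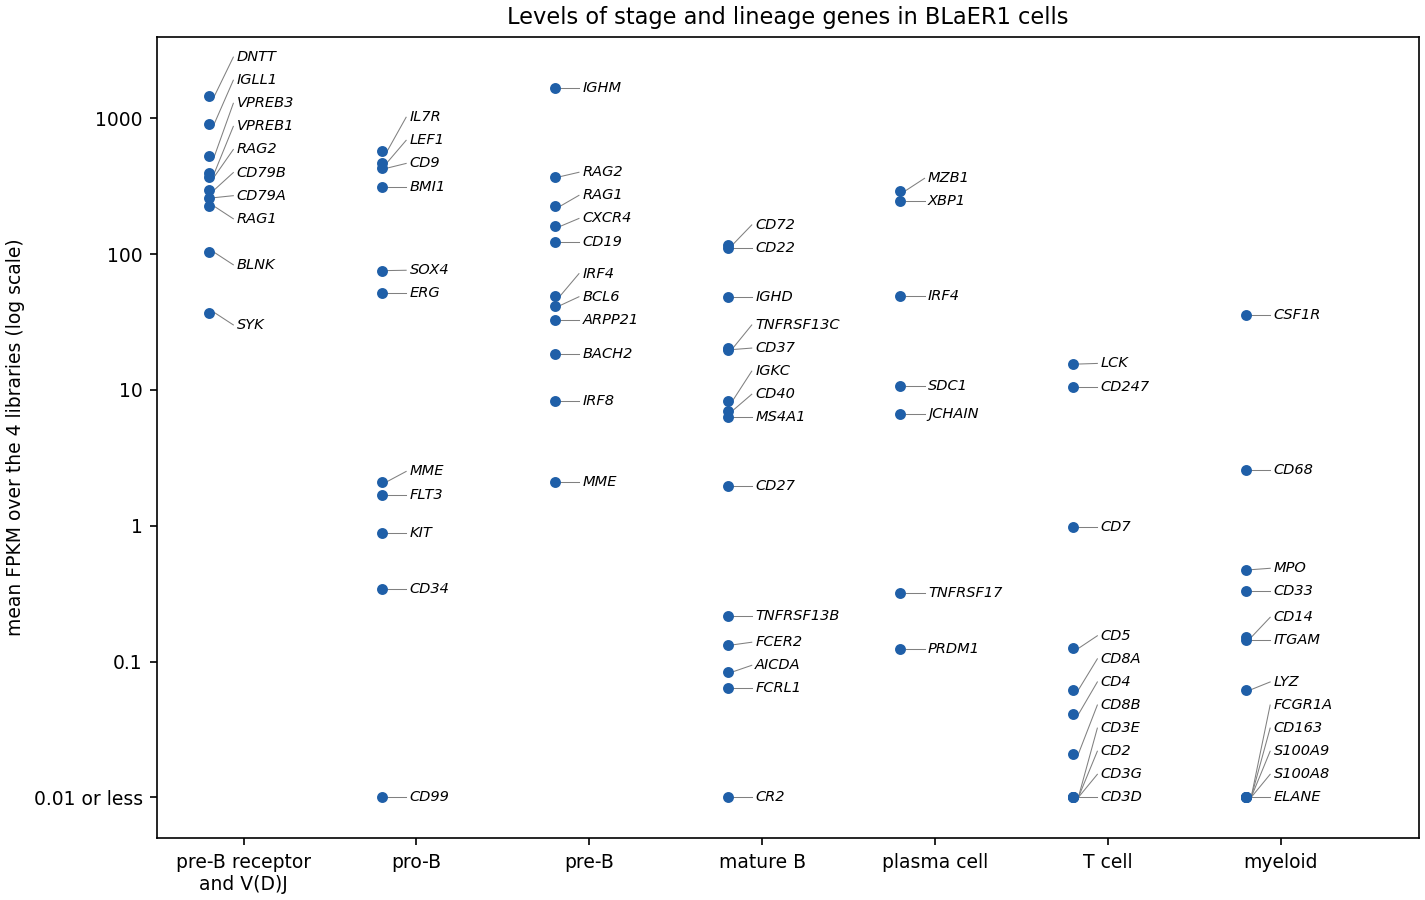
Mean FPKM over the 4 libraries (log scale, values of 0.01 or less drawn at 0.01) of the 10 genes and of stage and lineage markers, 1 point per gene; a gene of 2 lists is drawn in both. The 10 genes lie between 37.1 and 1452 FPKM, with IGHM above them at 1677 FPKM and MME, CD34, MS4A1 and IGKC far below.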

How the data were processed

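Polyadenylated RNA of 4 BLaER1 libraries, 2 control and 2 HAL7 knockdown, was sequenced. The submitters' processing notes name Cuffdiff 2.2.1, TopHat2 2.0.14, Bowtie2 2.2.5 and hg19; neither options nor annotation is given in the sources used here. The unit is not written in the table; the authors deposited values that were read as FPKM, made with these tools per the submitters' processing notes, from the ID column's name, the tools named and sums of 812554 to 853609 per library. Names and GRCh38 positions came from GENCODE 29, and promoter windows from RefSeq (GRCh38.p14). Depth was estimated from the step of FPKM times length in low values of single-transcript genes of at least 2500 nt.

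The groups were compared with limma 3.58.1 (R 4.3.3) on log2(FPKM + 1) in the 12935 genes, all 10 members included, that averaged 1 FPKM or more, plus HAL7, with a mean-variance trend, two-sided tests and p-values adjusted over all of them by Benjamini-Hochberg, at 0.05. An exact permutation test of 2 against 2 cannot go below p = 0.333. The fit was run on simulated data, where it found 42 of 50 log2 changes of 0.25 and 50 of 50 of 0.5, with 9 false calls. The simulated noise was independent and had no GC trend, unlike these libraries. It therefore does not show how often such changes would be found here.

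The members and the gene lists were chosen with earlier results of these data known. Genes were named by rule: HAL7, the 10 members and the genes overlapping them; the 4 of smallest p and 3 most abundant of the 2 pathway lists; the 3 most and 2 least abundant of each marker list (3 least where tied at 0), with MME, CD34, MS4A1, IGHM and IGKC. A gene that 2 lists share counts in both. Unnamed GENCODE overlaps are antisense or read-through genes. The other settings tried are given at the end.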

Additional observations from a re-analysis of the deposited data

How the results depend on the processing

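In all 15 other settings 0 of the 10 genes passed limma's test, with the smallest limma adjusted p among them between 0.11 and 0.70. The number of all genes past the threshold was less stable: 4 in the fit reported, 2 with a pseudocount of 0.1, 0 without a filter on low values, 1 with a mean of at least 5 FPKM, and 11 to 22 when each library was left out in turn, where a lone library is taken to vary as the other group does. With the replicate number as a block the count was 19, and 0 with the block and the GC trend removed together; the deviations of same-numbered libraries correlated at 0.12 over genes, but 2 pairs do not show that the numbers pair the libraries. The directions of RAG1, RAG2, VPREB1, VPREB3, CD79A, CD79B and SYK were kept in all 15 settings. Near 0, the log2 change of IGLL1 turned to 0.082 with the GC trend removed, with and without the block, and ran from -0.078 to 0.062 as each library was left out. That of BLNK turned to 0.0014 with median centring and ran from -0.11 to 0.10 as each library was left out, and that of DNTT ran from -0.079 to 0.0053. The cause was not tested. At the estimated depth the counting error of the 10 genes was at most 1.16%.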

Other observations

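Some genes of the stage lists, outside the 10, stood apart between the groups without passing the test. IRF4, a transcription factor of light chain rearrangement and plasma cells, had 46.1 and 43.2 FPKM in the controls and 51.0 and 55.6 FPKM after knockdown, a log2 change of 0.25 ± 0.06 (SE; limma adjusted p = 0.20). JCHAIN, which joins immunoglobulin polymers and is named after its values were seen, had 4.94 and 5.59 FPKM in the controls and 6.57 and 9.29 FPKM in the knockdown libraries, a log2 change of 0.50 ± 0.14 (SE; limma adjusted p = 0.21). MME had 1.89 and 1.63 FPKM in the controls and 2.21 and 2.72 FPKM after knockdown (limma adjusted p = 0.23). ARPP21, a gene of early B cell stages also named after its values were seen, had 35.0 and 35.4 FPKM in the controls and 31.9 and 28.9 FPKM after knockdown (limma adjusted p = 0.22). In each of these 4 genes, put together here with their values known, the groups did not overlap, as in 50.3% of all tested genes. The groups overlapped for 2 of 11 tested pre-B genes, 3 of 8 pro-B, 4 of 9 mature B and 2 of 5 plasma cell genes. The pre-B list includes RAG1 and RAG2 themselves, for which the groups did not overlap. Over all 12935 tested genes they overlapped for 6431.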
